A study of Mus musculus with 6 samples.

Results

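The genes described here are those for the proteins of the mitochondrial ribosome. They were taken as every row of the deposited count table whose symbol starts with Mrpl or Mrps followed by a digit, without the 6 pseudogene symbols that carry -ps. This gave 78 of the 55011 gene symbols, and 77 of the 78 had enough counts to be tested. The rule reads the symbol alone and no measured value, although the family was picked for description with earlier results of these data known.

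RNA was sequenced from whole visceral adipose tissue of male C57BL/6 mice, 30 weeks old, after 14 weeks of low-fat diet and then 16 weeks of high-fat diet, taken at zeitgeber time 0 h. The strain labels of both groups include Foxp3.Cre-YFP, a Cre recombinase with the fluorescent protein YFP under control of Foxp3, the gene that defines regulatory T cells. The 3 Bmal1WT libraries carried bmal1WT and the 3 Bmal1KO libraries bmal1KO, where Bmal1 is the clock transcription factor encoded by Arntl. Cre is thus aimed at a small share of the cells in the tissue, and fat cells, vessels and most leukocytes are not its target. Since the labels do not state whether samples came from different animals, the spread behind each p-value is that of these samples and may be technical.

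Mitochondria keep a small genome of their own and a dedicated ribosome that translates it. The proteins of that ribosome are encoded in the nucleus, made in the cytosol and imported, and they are assembled on RNAs copied from mitochondrial DNA into a small subunit, which reads the message, and a large subunit, which joins the amino acids. All the proteins it makes belong to the respiratory chain and the ATP synthase, which fat cells use to burn fuel and to power lipid synthesis. By the nomenclature of the field, 51 of the genes belong to the large subunit and 26 to the small one. Mrps36 belongs to neither, since its product is now known as a part of the oxoglutarate dehydrogenase complex.

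Library totals ran from 6514620 to 9529198 counts, and between 0.49% and 0.575% of each library fell on these genes. Arntl itself had 242 to 373 counts in Bmal1WT and 289 to 324 in Bmal1KO (log2 fold change 0.27, SE 0.22, edgeR adjusted p = 0.719), and Foxp3 had at most 3 counts in any library, so in RNA of whole tissue neither checks the genotype. Markers of fat cells, among them Adipoq and Plin1, had counts in all 6 libraries. Bmal1KO replicate 1 had counts on 30019 genes against 19009 to 20145 in the other 5, and Bmal1WT replicate 1 carried 489 CPM (counts scaled to library size) on 20 markers of epididymis and testis against at most 4.66 elsewhere.

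Most of the mitochondrial ribosomal protein genes had a slightly lower mean in Bmal1KO fat, and no single one of them passed the test. Of 77 tested genes 63 had a log2 fold change under 0 (81.8%, where 48% of all 13859 genes tested did). The median of the 77 was -0.13, a ratio of 0.915, beside 0.02 for all genes. Between libraries of a group the median of these genes had a pooled SD of 0.11 on the log2 scale, close in size to -0.13. Their share under the Bmal1WT mean had one of 22.6 percentage points. A difference of the set between the groups was not tested. With libraries scaled by their totals alone the lower share was 58.4%, beside 38.5% of all genes, and the median -0.03, beside 0.11. The values were tightly bunched, from -0.56 for Mrps34 to 0.31 for Mrps2, and 49 of 77 lay within 0.2 of 0. In whole tissue, fewer cells of a type and less RNA per cell cannot be told apart.

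The test of edgeR called 0 of the 77 genes at an adjusted p under 0.05 (smallest 0.454), beside 0% of all genes. At an unadjusted p under 0.05 there were 3, or 3.9%, beside 9.31% of all genes. All 3 were lower, beside 4.26% of all genes, and 0 were higher, beside 5.05%. DESeq2 also called 0 (background 0.417% of 14400 genes), with 3 at an unadjusted p under 0.05 (background 4.74% of 34476 genes). The latter background includes genes too low for edgeR's filter, so it is not like the others. On the 13859 filtered genes limma voom called 0 (background 0%), with 5 at an unadjusted p under 0.05 (background 12.2%). Without Bmal1KO replicate 1 the unadjusted count was 8 (10.4%, beside 16.2% of all genes in that fit), and without Bmal1WT replicate 1 or 2 it was 1 each (1.3%, beside 6.97% and 7.46%). In 11 genes all 3 Bmal1KO libraries lay under all 3 Bmal1WT libraries (14.3%, beside 7.85% of all genes). The reverse arrangement was found in 0, beside 7.83%.

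**Figure D1:**
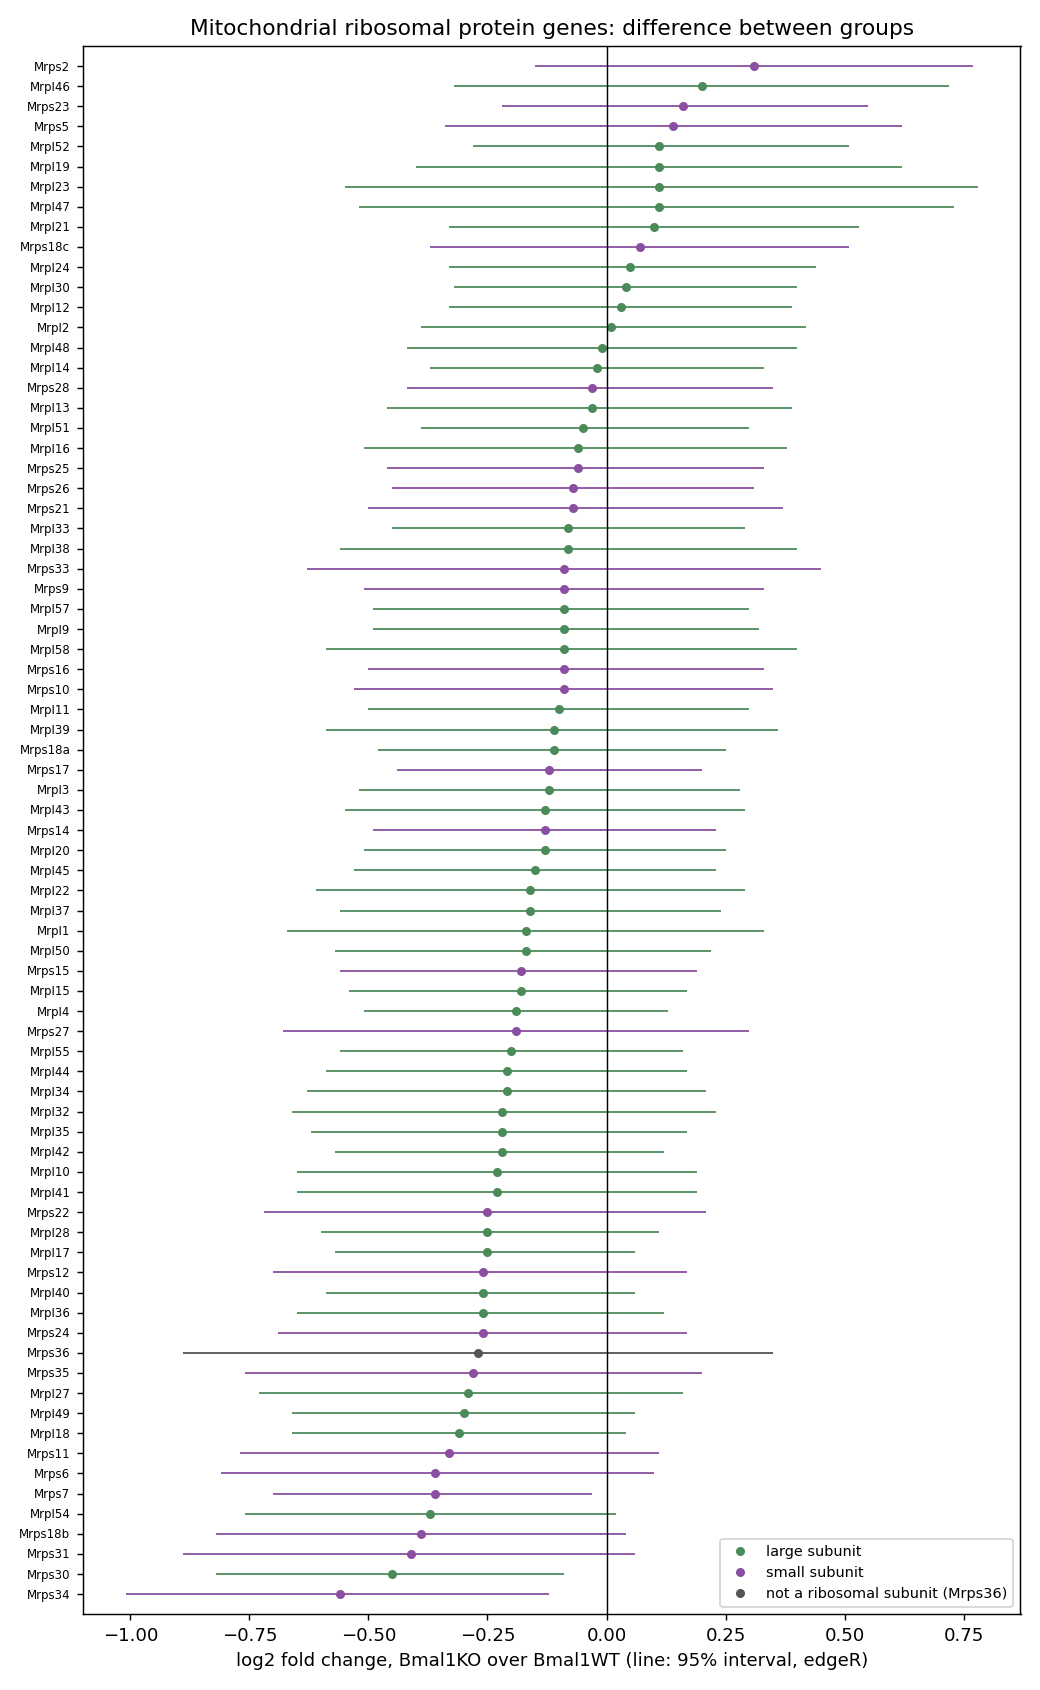
Log2 fold change of each of the 77 tested genes, Bmal1KO over Bmal1WT, with its 95% interval from edgeR and colours for the subunit. Points run from -0.56 (Mrps34) to 0.31 (Mrps2), and 3 intervals exclude 0. With scaling by library totals alone 58.4% rather than 81.8% of the points lie under 0, beside 38.5% rather than 48% of all genes.

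The intervals show how large a difference these libraries could have missed. Their bounds lay a median of 0.4 from the estimate on the log2 scale. They lay within a 2-fold change either way in 76 of 77 genes, the exception being Mrps34, whose lower bound was -1.01. They lay within a 1.5-fold change in 40. Within a group the genes varied little: the median coefficient of variation was 12.5% over the Bmal1WT and 13.5% over the Bmal1KO libraries.

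Mrps34, a small subunit protein found only in mitochondria and mutated in a form of Leigh syndrome, had the largest difference. Its levels were 41.2, 35.3 and 32.3 CPM in Bmal1WT, given here as everywhere from replicate 1 to 3, against 26.3, 22.3 and 24.9 CPM in Bmal1KO. All Bmal1KO libraries were under all Bmal1WT libraries, by a log2 fold change of -0.56 (SE 0.20, edgeR adjusted p = 0.454). The gene lies on mm10 chromosome 17, 24895116 to 24897502, and 77.8% of its exon bases are also exon bases of Nme3 or, on the other strand, Mapk8ip3. Reads there match more than 1 gene, and the libraries keep no strand, so its counts are uncertain. Mapk8ip3 had a log2 fold change of 0.34 (SE 0.22) and Nme3 had at most 1 count.

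Mrps30 separated the groups most cleanly. Despite its symbol its product sits in the large subunit. It was at 48.8, 52.0 and 50.9 CPM in Bmal1WT, against 35.6, 38.8 and 36.5 CPM in Bmal1KO, so that the gap between the groups was several times the spread within either. The log2 fold change was -0.45 (SE 0.17, 95% interval -0.82 to -0.09, edgeR adjusted p = 0.463). The gene lies on mm10 chromosome 13, 118378381 to 118387252, and shares 9.35% of its exon bases with B430218F22Rik on the other strand.

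Mrps7, a relative of a bacterial protein that binds the head of the small subunit, was the third gene with an interval that excludes 0. It was at 137, 146 and 133 CPM in Bmal1WT, against 121, 102 and 101 CPM in Bmal1KO, for a log2 fold change of -0.36 (SE 0.15, edgeR adjusted p = 0.495). Bmal1KO replicate 1 was the nearest of its group to the Bmal1WT range. The gene lies on mm10 chromosome 11, 115603925 to 115608036, and shares 11.9% of its exon bases with Gga3 and Mif4gd on the other strand.

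The other 8 genes without overlap between groups had smaller or less certain differences. Among large subunit genes, Mrpl54 was at 97.9, 92.2 and 83.3 CPM in Bmal1WT, against 75.6, 79.7 and 56.2 CPM in Bmal1KO. Mrpl17 was at 171, 184 and 169 CPM against 144, 151 and 144 CPM. Mrpl40 was at 101, 103 and 101 CPM against 89.5, 86.5 and 79.2 CPM. Mrpl54 and Mrpl40 code for proteins particular to mitochondria, while Mrpl17 has a bacterial relative. Their log2 fold changes were -0.37 (SE 0.18), -0.26 (SE 0.15) and -0.25 (SE 0.14), in that order from Mrpl54 through Mrpl40 to Mrpl17. Without Bmal1KO replicate 3 Mrpl54 was at -0.24.

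Mrpl18, Mrpl49 and Mrpl4, also of the large subunit, had log2 fold changes of -0.31 (SE 0.16), -0.30 (SE 0.16) and -0.19 (SE 0.14). Mrpl49 was at 91.3, 93.0 and 86.8 CPM in Bmal1WT, against 84.2, 63.9 and 71.8 CPM in Bmal1KO, so Bmal1KO replicate 1 was close to the lowest Bmal1WT library. Mrpl4 was the 11th of these genes by p and is named because it completes the count. In the small subunit, Mrps31 was at 25.4, 28.6 and 26.8 CPM against 23.3, 19.8 and 17.6 CPM (log2 fold change -0.41, SE 0.22). None of the 8 passed edgeR's test (adjusted p between 0.553 and 0.697).

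**Figure D2:**
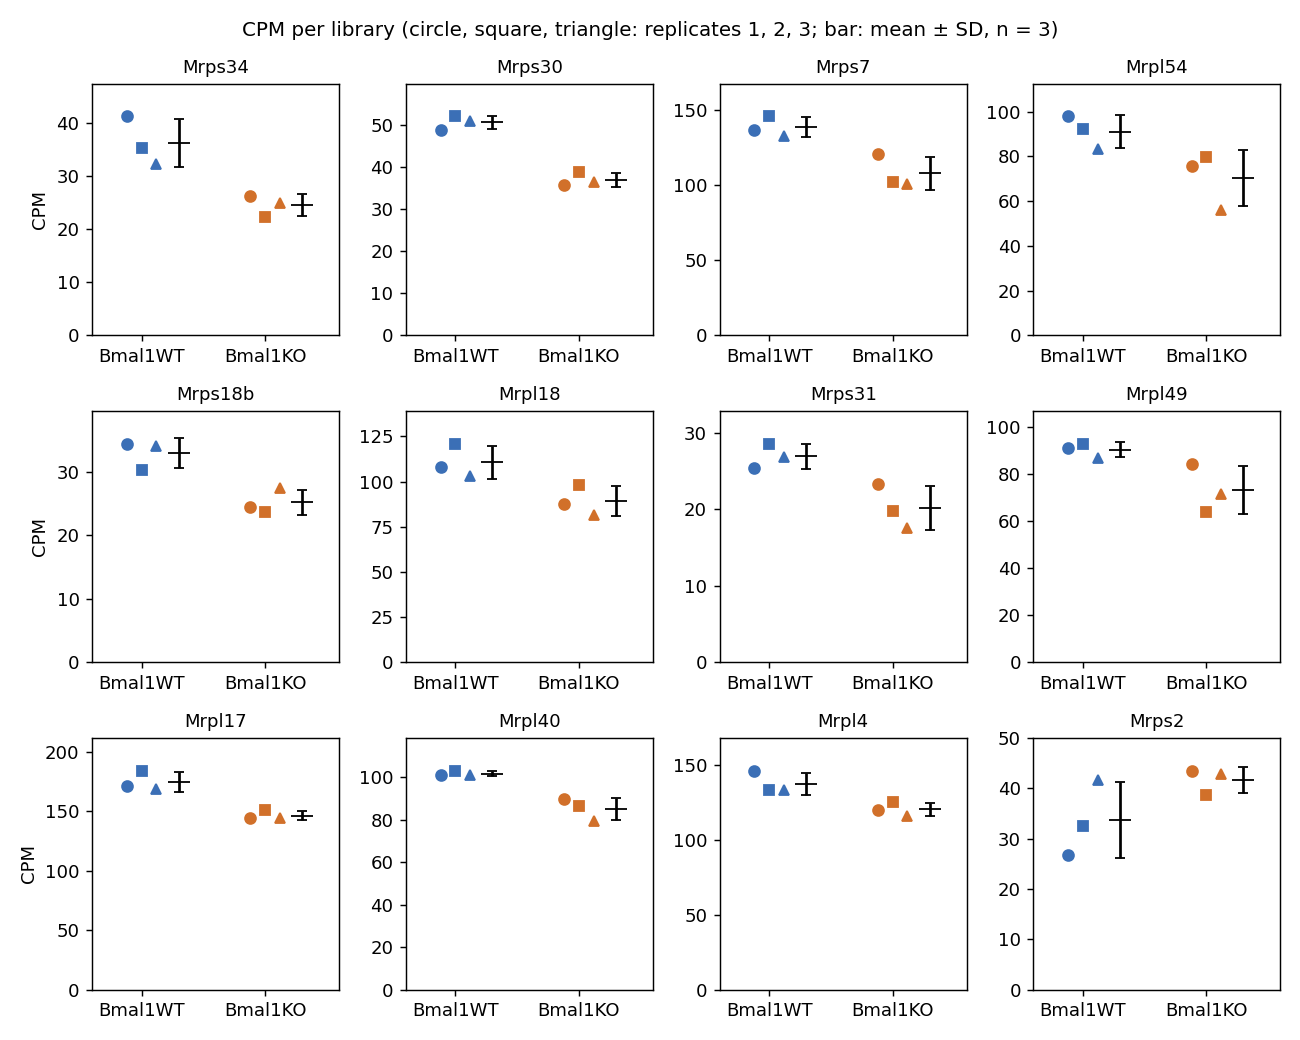
CPM of the 11 genes whose groups do not overlap and of Mrps2, the gene with the highest fold change, on axes from 0, with circle, square and triangle for replicates 1, 2 and 3 and mean ± SD (n = 3). Mrps30 shows the widest gap relative to its spread, at 48.8 to 52.0 against 35.6 to 38.8 CPM, while the Mrps2 groups overlap.

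Only 14 of the 77 genes had a log2 fold change above 0, and in all 14 the groups overlapped. Mrps2, a small subunit protein with a bacterial relative, had the highest value. It was at 26.7, 32.6 and 41.7 CPM in Bmal1WT, against 43.5, 38.7 and 42.9 CPM in Bmal1KO, for a log2 fold change of 0.31 (SE 0.21, edgeR adjusted p = 0.66). Bmal1WT replicate 3 lay inside the Bmal1KO range. Mrpl46, a large subunit protein particular to mitochondria, followed at 0.20 on the log2 scale with interleaved libraries. These 2 genes, like Mrpl4, were singled out after their values were seen. Mrpl12, whose product also binds the mitochondrial RNA polymerase, had a log2 fold change of 0.03.

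The subunits had similar medians, each at -0.03 with libraries scaled by totals alone, where all genes were at 0.11. The 50 tested large subunit genes had a median log2 fold change of -0.13 with 40 lower, and the 26 small subunit genes a median of -0.12 with 22 lower. Proteins with a bacterial relative, the core inherited from the ancestor of mitochondria, had medians of -0.13 in the large subunit (22 of 30 lower) and -0.11 in the small one (13 of 16 lower). For proteins particular to mitochondria the medians were -0.14 (18 of 20 lower) and -0.22 (9 of 10 lower). The nomenclature counts Mrps18a and Mrps18b in the latter class although they share an ancestor with a bacterial protein, and without them, a choice made after the values were seen, its medians were -0.15 (17 of 19 lower) and -0.19 (8 of 9 lower). No test of a difference between these classes was made, and 0 genes of any class passed edgeR's test.

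The homologues Mrps18a, Mrps18b and Mrps18c derive from 1 bacterial protein and occupy different places, Mrps18a in the large and the other two in the small subunit. Mrps18b was at 34.4, 30.2 and 34.1 CPM in Bmal1WT, against 24.5, 23.7 and 27.4 CPM in Bmal1KO, without overlap (log2 fold change -0.39, SE 0.19, edgeR adjusted p = 0.562). Mrps18a had a log2 fold change of -0.11 (95% interval -0.48 to 0.25) and Mrps18c one of 0.07 (-0.37 to 0.51). The 3 intervals overlap widely, and a difference between the homologues was not tested. For Mrps18b 30.5% of exon bases are shared with Gm16279 on the other strand.

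Members with other tasks showed no clear difference either. Mrpl58, a peptidyl-tRNA hydrolase that frees stalled ribosomes and is built into the large subunit, was at 71.8, 69.6 and 46.9 CPM in Bmal1WT, against 52.9, 74.7 and 49.0 CPM in Bmal1KO. The groups interleaved (log2 fold change -0.09, 95% interval -0.59 to 0.40). Mrps36 was at 16.7, 17.2 and 15.3 CPM against 17.0, 14.0 and 9.68 CPM, with Bmal1KO replicate 3 the lowest (log2 fold change -0.27, SE 0.28). This was -0.09 without Bmal1KO replicate 3 and -0.47 without Bmal1KO replicate 1.

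Library by library, the genes did not divide cleanly by group. Relative to the mean of the Bmal1WT libraries, on the log2 scale with 0.5 CPM added, Bmal1WT replicates 1 to 3 had medians of 0.06, 0.06 and -0.13, and the Bmal1KO libraries of -0.14, -0.02 and -0.23. Bmal1WT replicate 3 was thus lower than Bmal1KO replicate 2. Bmal1KO replicate 3 held the lowest value of 32 of the 77 genes and Bmal1WT replicate 3 that of 19, while Bmal1WT replicates 2 and 1 held the highest value of 30 and 25. With 1 library left out the median log2 fold change ran from -0.21 without Bmal1KO replicate 2 to -0.10 without Bmal1KO replicate 3 or Bmal1WT replicate 1, and stayed under 0 in all 6 fits.

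The proteins of the cytosolic ribosome, which translates nuclear messages, had another distribution. Their 80 tested genes had a median log2 fold change of 0.35, with 76 higher, 4 lower and 0 past edgeR's test. Their library medians in Bmal1KO were 0.02, 0.60 and 0.42, against 0.05, 0.16 and -0.19 in Bmal1WT. The cytosolic set was thus highest in Bmal1KO replicate 2, where the mitochondrial set was at -0.02, and near 0 in Bmal1KO replicate 1, where the mitochondrial set was at -0.14. The difference between the sets was not tested, and reads of many cytosolic ribosomal genes can also match their processed pseudogenes.

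**Figure D3:**
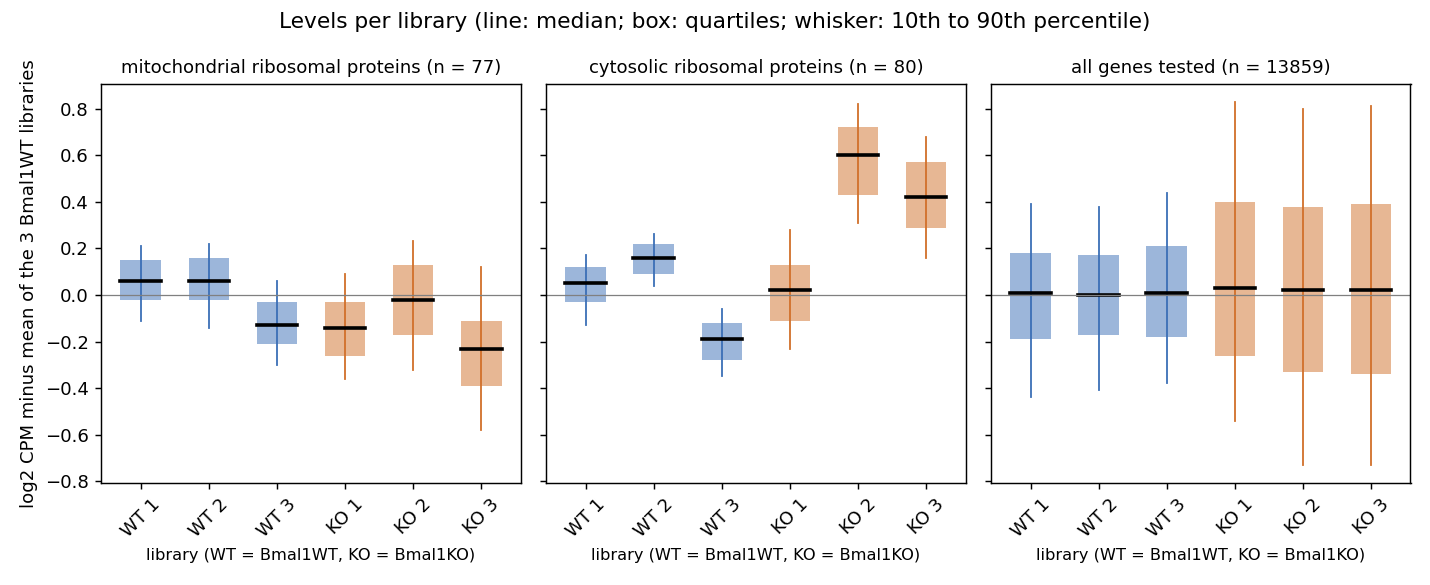
Log2 CPM minus the mean of the 3 Bmal1WT libraries for mitochondrial ribosomal, cytosolic ribosomal and all tested genes, in each library, as median (line), quartiles (box) and 10th to 90th percentile (whisker). Medians of the mitochondrial set lie between -0.23 and 0.06 and those of the cytosolic set between -0.19 and 0.60.

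Levels between genes were compared per length of exon, as the mean over the 6 libraries. The median gene was at 23.3 CPM per kb. Mrps6 led with 195 CPM per kb (120 to 231 over the libraries), ahead of Mrpl20 with 125 (97.8 to 144), Mrps21 with 116 (94.2 to 137) and Mrpl54 with 98 (68.1 to 119). Mrps6 was above Mrpl20 in all 6 libraries, Mrpl20 above Mrps21 in 3 and Mrps21 above Mrpl54 in 5, and all 4 kept their places with the longest transcript as the length. At the low end were Mrps5 (4.55 CPM per kb), Mrpl47 (4.02), Mrpl23 (2.64) and Mrpl53 (0.512), with Mrps5 above Mrpl47 in 4 of 6 libraries and the steps to Mrpl23 and to Mrpl53 in the same order in all 6. Over the whole order, 5 of 77 neighbouring pairs kept their order in all 6 libraries.

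Mrps6 had the highest counts, 1484 to 3179 per library. It was at 310, 354 and 342 CPM in Bmal1WT, against 326, 275 and 184 CPM in Bmal1KO, so that Bmal1KO replicate 1 was inside the Bmal1WT range and replicate 3 far under it. The log2 fold change of -0.36 (SE 0.21, edgeR adjusted p = 0.612) was -0.16 without Bmal1KO replicate 3 and -0.55 without replicate 1. Of its exon bases 19.9% are shared with Slc5a3, an inositol transporter gene in the same transcription unit, and Gm49711. Mrpl20 and Mrps21 had log2 fold changes of -0.13 and -0.07, and Mrps5, Mrpl47 and Mrpl23 of 0.14, 0.11 and 0.11, all with overlapping groups. The Mrpl20 value was -0.01 without Bmal1KO replicate 3, -0.05 without Bmal1WT replicate 2, -0.24 without Bmal1KO replicate 1 and -0.22 without Bmal1WT replicate 3.

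Mrpl53 was the only gene too low to test. It had 4, 3 and 1 counts in Bmal1WT and 1, 12 and 0 in Bmal1KO, at or under the floor of 3 counts in 4 of 6 libraries. A count of 0 in Bmal1KO replicate 3 allows up to 0.372 CPM, for counting error only. The other 77 genes had at least 78 counts in every library. Of the exon bases of Mrpl53, 88% lie inside exons of Ccdc142os on the other strand or Gm42688 on the same strand. How reads in such overlaps were counted is not given in the sources used here.

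**Figure D4:**
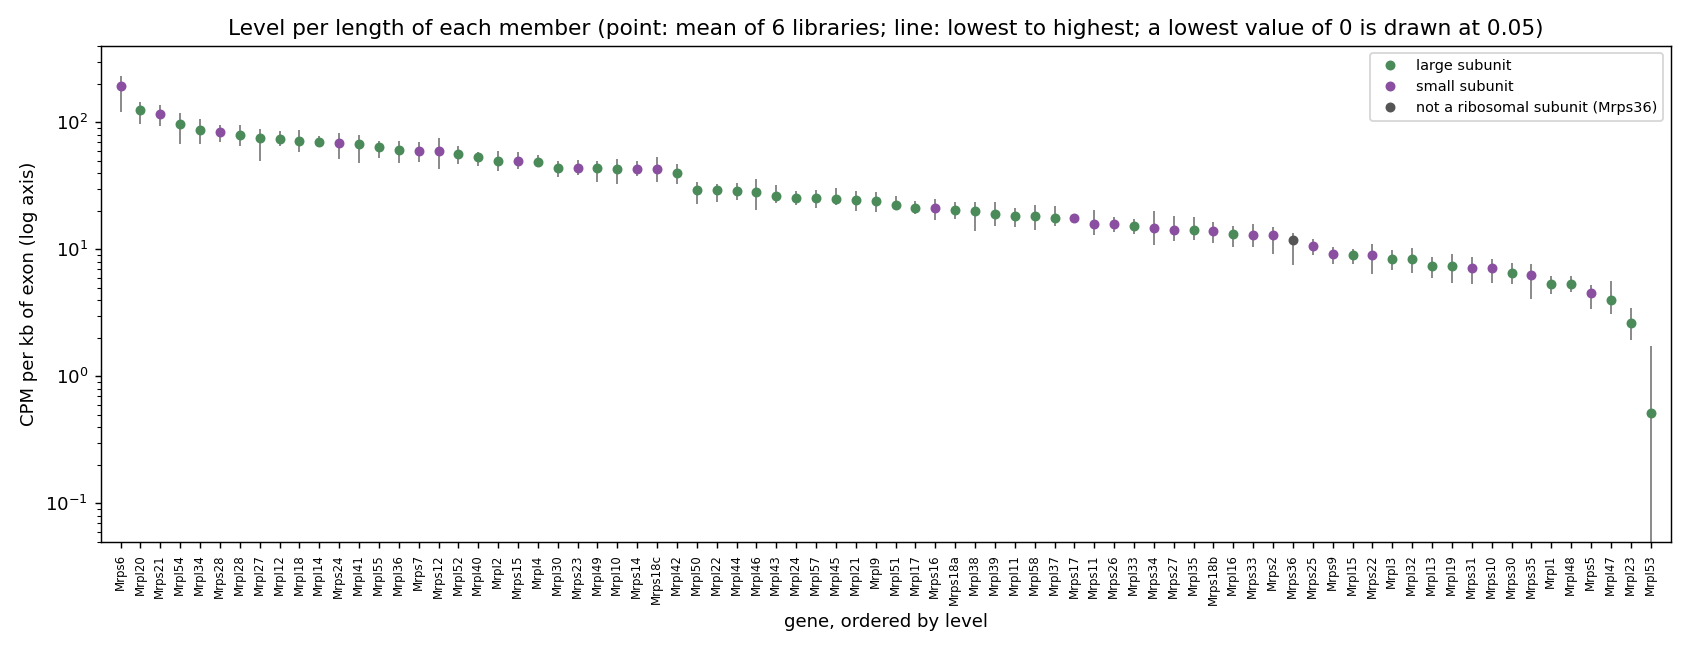
Mean CPM per kb of exon of all 78 genes over the 6 libraries, on a log axis, with a line from the lowest to the highest library. Levels run from 195 for Mrps6 to 2.64 for Mrpl23, and Mrpl53 lies apart at 0.512.

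Overlap with neighbours was common. Of the 78 genes 18 shared at least 10% of their exon bases with exons of another gene and 45 shared none, in GENCODE M21. In addition, 33 genes (42.3%) had a protein-coding neighbour on the other strand whose start lay within 1000 bases of their own, head to head, beside 15.7% of the 12522 tested protein-coding genes. The 33 genes had a median log2 fold change of -0.19 with 26 lower, and the 44 other tested genes -0.12 with 37 lower. Their 28 tested partners outside the set had a median of -0.08 with 16 lower.

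Mrps11 and Mrpl46 form such a pair with each other, 1 gene from each subunit, with starts that overlap by 412 bases. Mrps11 was at 38.3, 44.6 and 32.5 CPM in Bmal1WT, against 33.5, 30.6 and 27.9 CPM in Bmal1KO, and Mrpl46 at 47.2, 36.0 and 28.9 CPM against 32.8, 45.4 and 50.4 CPM. Their log2 fold changes of -0.33 (SE 0.20) and 0.20 (SE 0.24) had opposite signs and overlapping libraries. Other partners code for mitochondrial proteins: Ndufs6 beside Mrpl36, Ndufb5 beside Mrpl47, the helicase gene Twnk beside Mrpl43, the seryl-tRNA synthetase gene Sars2 beside Mrps12, and Ptcd2 beside Mrps27. These pairs were named for what the partners are, with their values known. The partners had log2 fold changes of -0.02, -0.12, -0.46, -0.30 and -0.38, in that order.

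Promoters of genes for mitochondrial proteins are known for sites of the nuclear respiratory factors NRF1 and GABP, an ETS factor, and of YY1, while BMAL1 with CLOCK binds E-boxes. RefSeq promoter windows of 300 bases, from 250 before to 50 after the annotated start (GRCm38.p6), were at hand for 69 of the 78 genes, in 75 windows. Words were searched on both strands and counted separately for each motif, so matches may overlap. The ETS word CCGGAAG was in 34.7% of the windows, beside 11.6% of 21263 windows of protein-coding genes and 8.86% of all 32851. The NRF1 word, GCGC and TGCGC with any 1 base between them, was in 17.3%, beside 6.38% and 4.6%. The YY1 word AAGATGGC was in 16%, beside 3.05% and 2.75%, and the E-box CACGTG in 9.33%, beside 7.84% and 7.15%. The windows held a median of 21 CpG dinucleotides, beside 13 for protein-coding genes.

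The windows of the 4 genes of smallest p that had one are shown to let the words be seen in place, with matches to any of the 4 words in capitals. Mrps30 is at chr13:118387203-118387502 on the minus strand, Mrps7 at chr11:115603890-115604189 on the plus strand, Mrps18b at chr17:35916391-35916690 and Mrpl18 at chr17:12916042-12916341, both on the minus strand.
Mrps30: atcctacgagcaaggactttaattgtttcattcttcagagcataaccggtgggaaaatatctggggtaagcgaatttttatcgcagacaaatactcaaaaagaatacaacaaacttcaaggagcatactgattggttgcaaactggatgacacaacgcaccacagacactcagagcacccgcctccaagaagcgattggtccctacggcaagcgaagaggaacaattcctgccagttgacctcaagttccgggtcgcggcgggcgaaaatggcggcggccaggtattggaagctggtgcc
Mrps7: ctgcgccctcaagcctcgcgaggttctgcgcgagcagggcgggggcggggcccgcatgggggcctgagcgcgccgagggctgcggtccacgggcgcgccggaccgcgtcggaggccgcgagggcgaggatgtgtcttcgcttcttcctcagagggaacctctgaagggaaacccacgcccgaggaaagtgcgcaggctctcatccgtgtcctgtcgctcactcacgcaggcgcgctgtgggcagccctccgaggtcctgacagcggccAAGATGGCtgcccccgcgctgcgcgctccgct
Mrps18b: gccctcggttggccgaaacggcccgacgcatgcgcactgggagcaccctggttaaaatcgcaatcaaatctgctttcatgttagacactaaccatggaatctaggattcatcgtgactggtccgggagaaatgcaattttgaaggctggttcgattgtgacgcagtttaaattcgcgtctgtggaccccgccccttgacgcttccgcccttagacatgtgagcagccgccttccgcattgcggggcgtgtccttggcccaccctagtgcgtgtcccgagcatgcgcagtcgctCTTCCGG
Mrpl18: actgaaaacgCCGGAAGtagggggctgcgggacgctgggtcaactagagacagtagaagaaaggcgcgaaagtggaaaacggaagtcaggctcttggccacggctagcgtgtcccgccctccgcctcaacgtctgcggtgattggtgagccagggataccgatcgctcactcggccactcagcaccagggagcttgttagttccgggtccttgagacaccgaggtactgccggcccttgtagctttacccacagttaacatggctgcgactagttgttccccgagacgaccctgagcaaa
Mrps30 has none of the words, Mrps7 the YY1 word after its start, and Mrps18b and Mrpl18 the ETS word, at opposite ends of the window.

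The YY1 word was held by 12 genes, and all 12 had a log2 fold change under 0, from -0.36 for Mrps7 to -0.11 for Mrps18a. Their median was -0.24. In 2 of the 12 all Bmal1KO libraries lay under all Bmal1WT libraries, beside 11 of the 77 tested genes and 7.85% of all genes. The share under 0 among genes outside the family that hold the word was not taken. With libraries scaled by totals alone 12 of the 12 were under 0, beside 45 of all 77 tested genes and 38.5% of all genes. Genes without the word were not counted under that scaling. In the main fit 43 of the 56 tested genes with a window but without the word were under 0, with a median of -0.095. For the ETS word the medians with and without it were -0.09 (21 of 25 genes lower) and -0.16 (34 of 43). For NRF1 they were -0.09 (11 of 13 lower) and -0.16 (44 of 55), and for the E-box -0.13 (3 of 5) and -0.13 (52 of 63). These 4 splits were made with the fold changes known, none was tested, and a match is not evidence of binding.

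The 12 words are shown with up to 10 bases on either side, with their place in GRCm38.p6 and read on the gene's strand. They are listed in the order of the fold changes. Neither likeness of their surroundings nor a relation of these to the fold changes was tested. The word itself is in capitals, as AAGATGGC in 8 genes and as its reverse complement in 4. All 8 of the first kind start between 11 and 36 bases after the annotated transcription start, and all 4 of the second kind lie before it.
Mrps7, chr11:115604148-115604175 (+): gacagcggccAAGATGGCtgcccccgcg
Mrps11, chr7:78783014-78783041 (+): tacgggcgccGCCATCTTtctgtcttcc
Mrpl49, chr19:6057722-6057749 (-): ttgaggcgccAAGATGGCagcagcggtg
Mrps24, chr11:5707652-5707675 (-): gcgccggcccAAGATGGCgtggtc
Mrpl36, chr13:73330969-73330996 (+): gtgaccttacGCCATCTTtcttcctggc
Mrps12, chr7:28742003-28742030 (-): catggacgcaGCCATCTTggagtggaaa
Mrpl42, chr10:95501905-95501932 (-): agattgaagcAAGATGGCgagcgcgcgg
Mrpl35, chr6:71823744-71823771 (-): ggcaggctgcAAGATGGCggcttccatc
Mrpl32, chr13:14613262-14613287 (-): cgcgctctGCCATCTTtacccggaaa
Mrps27, chr13:99344790-99344817 (+): ggtgcgctccAAGATGGCggctcccatg
Mrpl37, chr4:107066823-107066850 (-): tgcacgggcaAAGATGGCggcgtccagg
Mrps18a, chr17:46111005-46111032 (+): ggtgcgttccAAGATGGCggccctcagg

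The other parts of the mitochondrial translation system had 0 genes past edgeR's test in any of 10 lists. With libraries scaled by totals alone the medians of 3 of them changed sign. They were then 0.03 for the synthetases, 0.07 for assembly factors and 0.01 for subunits without an Mrp symbol. List medians are to be read relative to the median of all genes, 0.02 in the main fit and 0.11 with totals alone. Translation factors, which load and move the transfer RNAs, had a median log2 fold change of -0.21, with 10 of 12 lower. Tsfm, an elongation factor, was at 35.6, 45.6 and 35.9 CPM in Bmal1WT, against 27.7, 33.4 and 31.4 CPM in Bmal1KO, for a log2 fold change of -0.34 (SE 0.20). Gfm1, which translocates the ribosome, and Mtif2, an initiation factor, had -0.23 (SE 0.17) and -0.30 (SE 0.26). The 5 subunits whose symbols lack the Mrp prefix had a median of -0.08, with 4 lower, from Gadd45gip1 at -0.20 and Aurkaip1 at -0.12 to Dap3 at 0.14.

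Aminoacyl-tRNA synthetases, which charge the transfer RNAs, spread far more widely than the ribosomal genes, from -1.19 to 0.59 (median -0.07, 12 of 22 lower). Several had few counts and large errors, such as Yars2 with 10 to 25 counts (SE 0.67). The median SE of the ribosomal genes was 0.18, and the part of counting error in the wider spread was not tested. Wars2, for tryptophan, was at 10.6, 9.73 and 12.8 CPM in Bmal1WT, against 3.46, 4.53 and 6.45 CPM in Bmal1KO, without overlap (log2 fold change -1.19, SE 0.36, edgeR adjusted p = 0.414). Lars2, for leucine, went the other way, at 347, 495 and 494 CPM against 708, 813 and 487 CPM (0.59, SE 0.22, edgeR adjusted p = 0.476), with Bmal1KO replicate 3 inside the Bmal1WT range. Its level was far above the rest of the list, where Gars was highest at 127 to 198 CPM. Whether all reads counted for Lars2 come from that gene was not tested, so its counts are uncertain. Mars2, for methionine, had a log2 fold change of -0.64 (SE 0.35).

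Ribosome assembly factors had a median of -0.02 (15 of 26 lower). Mpv17l2, an inner membrane protein needed for assembly of the ribosome, had the smallest p in the list. It was at 118, 126 and 104 CPM in Bmal1WT, against 83.6, 73.2 and 74.4 CPM in Bmal1KO, for a log2 fold change of -0.59 (SE 0.16, edgeR adjusted p = 0.414), with no overlap. The GTPases Mtg1 and Noa1 had -0.56 (SE 0.26) and -0.67 (SE 0.35), with overlapping groups in both. Genes of mitochondrial transcription and RNA maturation were split evenly, 12 of 24 lower, with a median of 0.01. The RNA-binding proteins Tbrg4 and Ptcd2 had -0.42 (SE 0.22) and -0.38 (SE 0.19), Fastkd1 had 0.95 (SE 0.46), the stabiliser of messages Lrpprc 0.20 (SE 0.22) and the mitochondrial DNA packaging factor Tfam 0.27 (SE 0.21).

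The messages that the ribosome reads, copied from mitochondrial DNA, had a median log2 fold change of -0.14, with 8 of 11 tested genes lower, and 2 of the 13 were too low to test. Their order over libraries was not that of the ribosomal genes. Relative to the Bmal1WT mean, their medians in the Bmal1KO libraries were 0.29, -0.24 and -0.46, where the ribosomal genes had -0.14, -0.02 and -0.23. mt-Cytb, a subunit of complex III, was at 5762, 5006 and 4542 CPM in Bmal1WT, against 5471, 3599 and 3375 CPM in Bmal1KO, for a log2 fold change of -0.30 (SE 0.23). mt-Nd1 and mt-Nd4, subunits of complex I, had -0.22 (SE 0.21) and -0.20 (SE 0.22). Among the 11, mt-Co2, mt-Co3, mt-Atp6 and mt-Atp8 had at most 104 counts in any library, against 47433 to 71979 for mt-Nd1. Copies of mitochondrial DNA in the nuclear genome can share such reads, so the counts of all these messages are uncertain.

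Factors that insert the new proteins and assemble respiratory complexes had a median of -0.12 (21 of 35 lower). The ATP synthase assembly factors Tmem70 and Atpaf2 and the cytochrome oxidase factor Cox19 had -0.49 (SE 0.15), -0.45 (SE 0.16) and -0.41 (SE 0.15), each without overlap between groups. Mitochondrial chaperones and proteases had a median of -0.22 (18 of 20 lower), with Trap1 at -0.41 (SE 0.15), Lonp1 at -0.50 (SE 0.21) and Mipep at -0.75 (SE 0.35). The import machinery had a median of -0.12 (21 of 27 lower), with Timm17a at -0.33 (SE 0.16), Timm23 at -0.38 (SE 0.20) and Gfer at -0.39 (SE 0.20). With libraries scaled by totals alone the medians of these 3 lists were -0.02 (18 of 35 lower), -0.12 (16 of 20) and -0.03 (15 of 27). That of the translation factors was -0.12 (10 of 12) and that of the mitochondrial DNA messages -0.05 (6 of 11), with all genes at 0.11.

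Nuclear regulators of mitochondrial biogenesis lay on the other side, with a median of 0.30 and 11 of 15 higher. Gabpb2, a partner chain of the ETS factor GABP, was at 11.4, 10.5 and 12.2 CPM in Bmal1WT, against 20.3, 16.0 and 18 CPM in Bmal1KO, without overlap (log2 fold change 0.67, SE 0.25, edgeR adjusted p = 0.476). Its partner Gabpa had 0.34 (SE 0.29), Sp1 0.51 (SE 0.25), Max 0.48 (SE 0.30) and Nrf1 0.03 (SE 0.26). The coactivator Ppargc1a was at 0.114, 1.52 and 4.73 CPM against 3.31, 5.78 and 3.23 CPM. Its Bmal1WT replicate 1 value is under the floor of 3 counts (0.342 CPM), and its log2 fold change of 0.94 (SE 0.87) is uncertain.

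**Figure D5:**
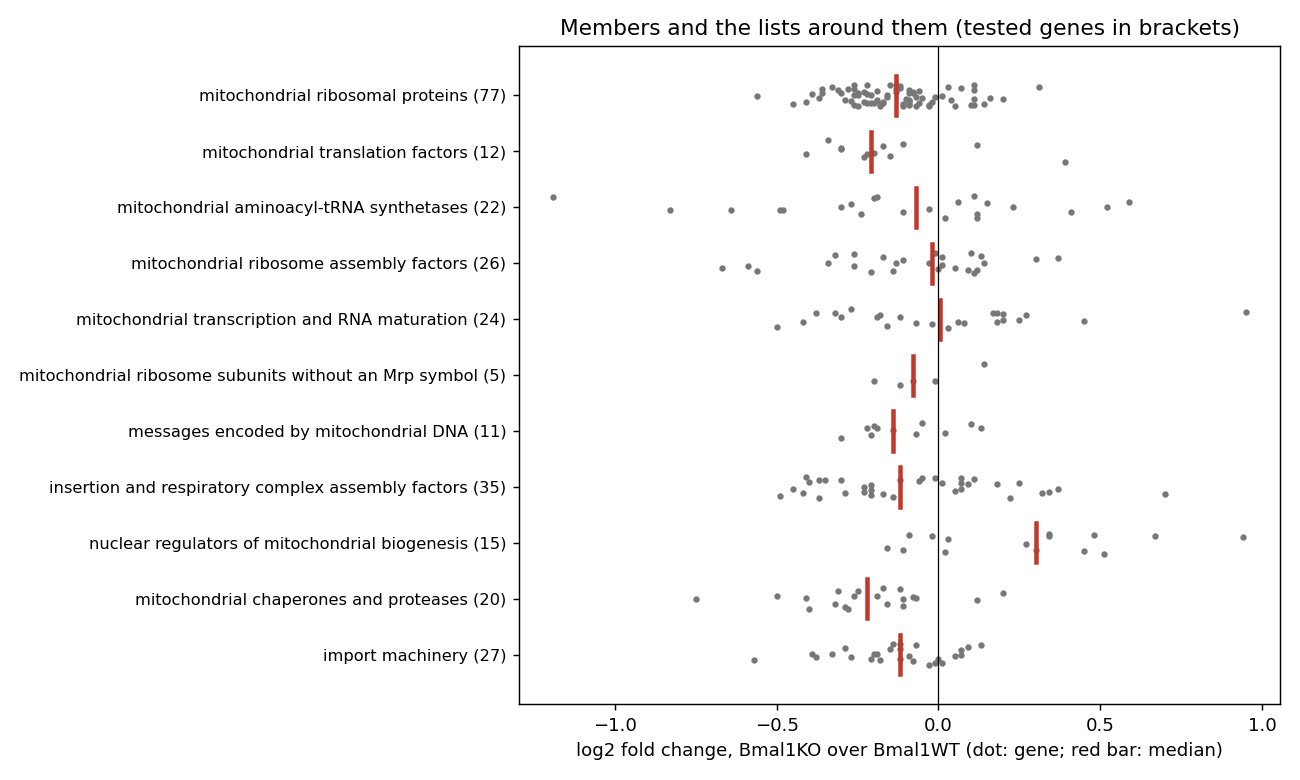
Log2 fold change, Bmal1KO over Bmal1WT, of each tested gene (dot) in the mitochondrial ribosomal set and 10 lists around it, with the median as a red bar. Medians run from -0.22 for chaperones and proteases to 0.30 for nuclear regulators, with the ribosomal set at -0.13 (all genes: 0.02). The ribosomal set is more tightly bunched than the synthetases, several of which have fewer counts and larger errors. With scaling by library totals alone the medians of synthetases, assembly factors and subunits without an Mrp symbol lie at 0.03, 0.07 and 0.01 (all genes: 0.11).

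Cell type markers also differed between the libraries, with 0 of them past edgeR's test. Of 20 fat cell markers 19 had a log2 fold change under 0 (median -0.37), and their summed level was 41678 to 52284 CPM in Bmal1WT and 51161, 32451 and 26731 CPM in Bmal1KO replicates 1 to 3. The mitochondrial ribosomal genes summed to 5880, 5912 and 5287 CPM in Bmal1WT and to 5157, 5501 and 4705 CPM in Bmal1KO. Bmal1KO replicate 1 had fat cell markers inside the Bmal1WT range and ribosomal genes under it. In Bmal1KO replicate 2 the fat cell markers were under the range and the ribosomal genes inside it, and in replicate 3 both were under. All 12 endothelial markers were lower (median -0.64, sum 480 to 1015 CPM in Bmal1WT and 337 to 553 CPM in Bmal1KO). All 12 T cell markers were higher (median 1.78, sum 25.8 to 75.3 CPM and 111 to 232 CPM), as were 10 of 12 macrophage markers (median 0.39, sum 8701 to 13053 CPM and 8671 to 18392 CPM). Of the other lists, 8 of 8 tested B and plasma cell markers (median 2.05, sum 33.3 to 72.2 CPM and 36.9 to 886 CPM), 10 of 10 mesothelial markers (0.47, sum 251 to 517 CPM and 541 to 599 CPM) and 7 of 10 stromal progenitor markers (0.20, sum 4574 to 6963 CPM and 4830 to 6698 CPM) were higher. The 20 epididymis and testis markers were all removed by the filter on low counts and not tested. Their sum was 489 CPM in Bmal1WT replicate 1 and at most 4.66 CPM elsewhere, with Tnp1, Odf1 and Smcp at 0 in every library. The part of these cell types in the ribosomal values was not tested.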

How the data were processed

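The authors deposited a table of read counts per gene symbol for 6 libraries, made from poly(A) RNA with an unstranded kit and no molecular identifiers, per the labels. The submitters' processing notes name STAR 2.7.3a, featureCounts and mm10. For the annotation and for reads in overlapping genes, the sources used here give nothing. The gene family, the gene lists and the tests were chosen with earlier results of these data known, although membership itself follows from the symbols.

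From the counts, edgeR 4.0.16 (R 4.3.3) gave CPM with TMM scaling, relative to the counts on tested genes, and, after its filter on low counts (filterByExpr), a quasi-likelihood test of Bmal1KO against Bmal1WT over 13859 genes with p adjusted by Benjamini-Hochberg and called under 0.05. Fold changes are log2, Bmal1KO over Bmal1WT, with a prior count. Counting error alone puts the floor of 3 counts at 0.323 to 0.451 CPM. Alternatives were DESeq2 1.42.0, limma 3.58.1 (voom), other scalings and filters, a trend on length and GC content (mgcv 1.9.3), and leaving out libraries. 3 more, without genes of 10% or more exon overlap, with the longest transcript as length and without Mrps18a and Mrps18b in their class, were added after the data were seen. Positions and lengths are from GENCODE M21 (mm10) and promoters from RefSeq (GRCm38.p6).

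Named genes were Arntl and Foxp3, up to 10 genes in each direction of smallest p among those whose groups do not overlap, the 4 highest and 4 lowest per kb, the Mrps18 homologues, Mrps36, Mrpl58, genes under the filter, and up to 3 of smallest p per list plus Tfam, Ppargc1a, Nrf1, Gabpa and Lrpprc. Others were named after their values were seen: those said so in the text, overlapping neighbours, and the remaining list genes. Lists held 315 entries, 5 of them without a match in the table. Same-numbered libraries of the 2 groups did not deviate together, so the main fit has no block.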

Additional observations from a re-analysis of the deposited data

How the results depend on the processing

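Under all planned settings and the added one on exon overlap, 0 mitochondrial ribosomal protein genes passed the test, with a smallest adjusted p of 0.157, without Bmal1KO replicate 1. Their median log2 fold change stayed between -0.21 and -0.03. The share of genes under 0 was 81.8%, beside 48% of all genes, and ran from 71.4% to 88.3% with 1 library left out. With both libraries numbered 1 left out the share was 67.5%, beside 47.8% of all genes, and the median -0.09, beside 0.03. With libraries scaled by totals alone the share was 58.4%, beside 38.5% of all genes. That scaling moved the median of all genes from 0.02 to 0.11. The count of all genes past the test was 0, but 60 with DESeq2, 61 with both libraries numbered 1 left out, 186 with no filter, and 0 to 156 with 1 library left out, the highest without Bmal1KO replicate 1. Named genes with small values changed sign. With both libraries numbered 1 left out, Mrpl58 was at 0.09, Mrps18a at 0.05, Mrps21 at 0.12 and Mrps5 at -0.01; with library totals alone, Mrpl58 was at 0.00 and Mrps21 at 0.03. With 1 library left out the lowest and highest values were -0.08 and 0.28 for Mrpl23, -0.18 and 0.28 for Mrpl47, -0.31 and 0.02 for Mrpl58, -0.06 and 0.29 for Mrps18c, -0.24 and 0.03 for Mrps21, and -0.01 and 0.30 for Mrps5. The cause was not tested. The replicate numbers are shared by the groups. Deviations of same-numbered libraries from their group means correlated at -0.07, 0.094 and -0.031, beside -0.085 to 0.114 for the other pairs. Whether same-numbered libraries share more than a number was not tested. With the replicate block 0 members were called, their median was -0.12 and the lower share 81.8%. Low counts kept Mrpl53 alone among the members from being tested, with at most 12 in any library. Whether depth, its level or the handling of reads in overlapping genes lies behind this was not tested.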

Other observations

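The 6 pseudogene symbols of the family, which were left out by name, had few counts. Mrpl23-ps1 had 10 to 15 counts in every library (log2 fold change 0.10, SE 0.66), and Mrps36-ps3 had 0 in all 6. Mrpl27-ps, Mrpl48-ps, Mrps36-ps1 and Mrps36-ps2 had at most 6 counts in any library and were too low to test.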
